A study of Homo sapiens with 12 samples.

Results

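The genes of the DNA replication origin and fork machinery were followed after knockdown of KMT9α, the catalytic subunit of a histone H4 lysine methyltransferase, in CAL-29 and 5637 cells. Both are established human bladder carcinoma cell lines. The set was given as a list of gene symbols covering origin licensing, the helicase, the polymerases, the sliding clamp and nucleotide supply. It held 49 of the 23064 gene symbols of the count tables. Cells of each line were transfected with siCtrl, a control siRNA, or with an siRNA against KMT9α (siKMT9α) and harvested after 3 days, with 3 libraries per siRNA and line. The labels call both lines wild type and name no further allele or treatment. The siRNA is siKMT9α#1 by the results of the study, whereas the labels leave it unnamed. The siRNA concentration, the transfection reagent and the medium went with the line and cannot be told apart from it.

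Replication origins are licensed in G1, when the origin recognition complex, CDC6 and CDT1 load rings of MCM2-7 onto DNA. At the start of S phase, kinases and firing factors join CDC45 and the GINS complex to these rings, which then unwind DNA ahead of the polymerases. PCNA, loaded by the RFC complex, tethers the polymerases, and RPA covers the exposed single strands. Many of these genes are known targets of the E2F transcription factors, whose activity RB holds back.

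N6AMT1 (NM_013240), which encodes KMT9α, had 11.4, 10.2 and 9.68 CPM (counts per 1000000 counts, with library sizes scaled by the trimmed mean of M-values, TMM) in the siCtrl libraries of CAL-29 cells and 2.82, 2.93 and 1.99 CPM in the siKMT9α libraries. The 5637 libraries had 13.4, 13.2 and 13.3 CPM against 3.75, 2.22 and 2.56 CPM. It fell to 25.0% of siCtrl in CAL-29 cells (adjusted p = 1.33e-10) and to 21.3% in 5637 cells (adjusted p = 1.05e-15), and the difference of the fall between the lines did not pass the test (adjusted p = 0.338). Summed over the 1 transcript kept per gene symbol, the libraries held between 24479349 and 35151257 counts. All 49 genes had enough counts to be tested in both lines. The member with the fewest counts was POLE2 in CAL-29 cells, with a mean of 143.8 counts per library, and TIPIN in 5637 cells, with 352.0. The 9 epithelial markers examined were each above 1 CPM in every library. Their sum for CAL-29 was 12800 to 13480 CPM with siCtrl and 6239 to 6446 CPM with siKMT9α. For 5637 the sum was 9027 to 9467 CPM with siCtrl and 6233 to 6460 CPM with siKMT9α. Not every marker followed the sum, although 8 of the 9 had log2 fold changes below 0 in each line. KRT7 rose from 74.83 to 92.46 CPM in CAL-29, where GATA3 hardly moved (88.33 against 86.47 CPM). TP63 rose from 128 to 164.8 CPM in 5637. The markers of leukocytes, endothelium and stroma each summed to at most 14.9 CPM. The part of these shifts in the results was not tested.

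KMT9α knockdown raised most of the replication genes in CAL-29 cells, whereas in 5637 cells they were called in both directions at shares near those of all genes. In CAL-29 cells, 31 of the 49 genes were upregulated, only MCM6 was downregulated and 17 were not called. In 5637 cells, 9 were upregulated, 12 downregulated and 28 not called. A call is an unadjusted p below 1e-06 from edgeR's quasi-likelihood test, so a gene with a low adjusted p can remain without a call. The study also took a p below 1e-06 from edgeR. Its methods do not state the test or whether p was adjusted, so its calls can differ from these. Over all genes tested, 15.0% were called higher and 15.0% lower in CAL-29 cells, and 18.0% were called higher and 17.6% lower in 5637 cells. The members were thus called higher in CAL-29 cells at 63.3% and lower at 2.04%, whereas in 5637 cells their shares of 18.4% and 24.5% lay near the background. With libraries scaled by total counts, 5 were upregulated and 13 downregulated in 5637 cells. With the counts of all transcripts of a gene summed, 4 were upregulated and 8 downregulated there.

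The median log2 fold change of the 49 genes was 0.48 in CAL-29 cells, with 46 values above 0, against -0.02 over all genes. In 5637 cells it was -0.04, with 23 values above 0, against -0.01 over all genes. At a Benjamini-Hochberg adjusted p below 0.05, 43 rose and 1 fell in CAL-29 cells, beside 34.3% higher and 35.2% lower among all genes. At the same limit, 16 rose and 22 fell in 5637 cells, beside 35.1% higher and 35.6% lower. RNA of whole cultures was measured, so a change in the share of cells in S phase and a change of RNA per cell cannot be told apart. Nothing in the labels says that the libraries of a group came from separate cultures, so the p-values measure the spread between these libraries, which may be technical.

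**Figure D1:**
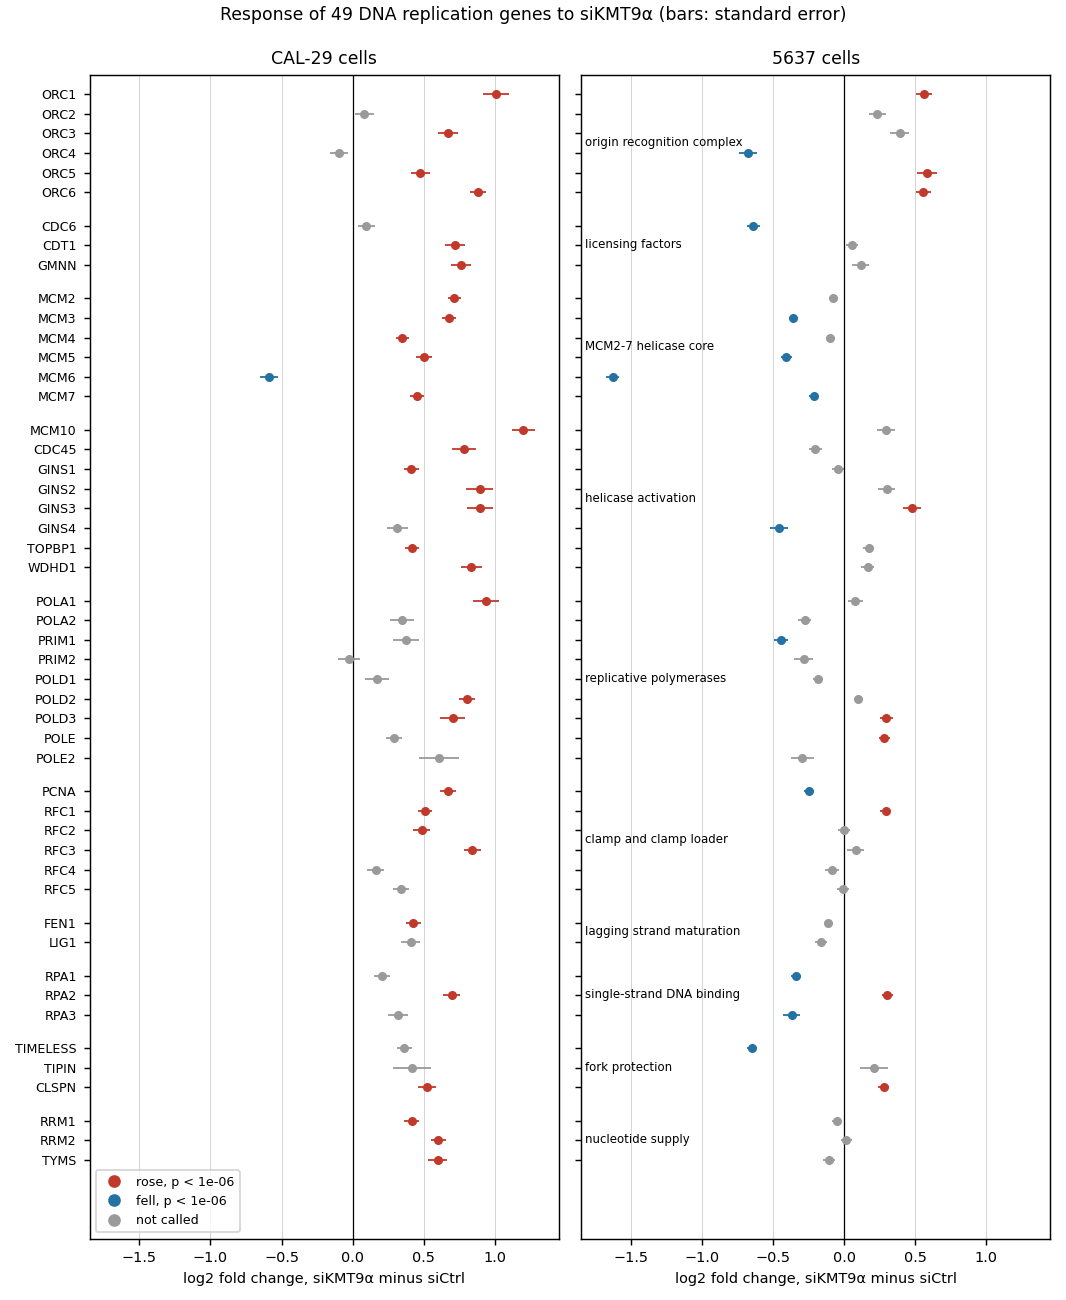
Log2 fold change (siKMT9α minus siCtrl, x axis) of the 49 replication genes in CAL-29 cells (left) and 5637 cells (right), ordered by role, with bars for the standard error from 6 libraries per line. In CAL-29 cells 31 points are red (upregulated) and MCM6 alone is blue (downregulated), whereas in 5637 cells 9 are red and 12 blue.

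The MCM2-7 ring, the core of the replicative helicase, responded differently in the lines for every subunit. Of its 6 subunits, 5 rose and MCM6 fell in CAL-29 cells. In 5637 cells all 6 values were below 0, and MCM3, MCM5, MCM6 and MCM7 were called lower. The deposited counts do not state whether strand was used, and 23.6% of the exonic bases of MCM2 and 7.9% of those of MCM7 lie opposite to exons of other genes, so reads of the opposite strand cannot be told apart there.

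MCM6 (chr2:136597196-136634013 of GRCh37, minus strand) was the member with the largest fall in both lines. It had 55.9, 55.2 and 57.6 CPM with siCtrl and 37.0, 40.5 and 34.4 CPM with siKMT9α in CAL-29 cells. In the other line it had 122.9, 116.6 and 122.4 CPM with siCtrl and 41.8, 37.4 and 38.0 CPM with siKMT9α. The groups did not overlap in either line, and the knockdown libraries of both lines lay near each other on scales set within each line. The log2 fold change was -0.59 (SE 0.06, adjusted p = 3.32e-08) in CAL-29 cells and -1.63 (SE 0.04, adjusted p = 5.5e-23) in 5637 cells, a 3.09-fold lower level. In the joint fit of all 12 libraries, the response was lower in 5637 than in CAL-29 cells by a log2 value of -1.05 (SE 0.08, adjusted p = 2.58e-12).

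The other ring subunits rose in CAL-29 cells. MCM2 went from 106.7, 111.8 and 113.8 CPM to 185.3, 182.4 and 177.3 CPM, a log2 fold change of 0.71 (SE 0.05, adjusted p = 2.04e-11). MCM3 went from 93.4, 97.3 and 96.6 CPM to 162.2, 152.5 and 144.7 CPM, a log2 fold change of 0.68 (SE 0.05). Both were thus about 1.6-fold higher, and no knockdown library lay within the control range. MCM5 went from 44.9, 45.0 and 50.7 CPM to 64.1, 68.4 and 66.7 CPM, a log2 fold change of 0.50 (SE 0.06, adjusted p = 1.51e-07). MCM7 went from 574.4, 613.2 and 574.6 CPM to 807.9, 801.7 and 803.1 CPM, a log2 fold change of 0.45 (SE 0.05). MCM4 showed the smallest rise of the ring. It went from 139.8, 140.3 and 147.6 CPM to 184.2, 186.3 and 174.5 CPM, a log2 fold change of 0.35 (SE 0.05, adjusted p = 1.28e-06). The call of MCM4 was lost without siCtrl replicate 2 or siKMT9α replicate 1, 2 or 3, at log2 fold changes of 0.33 to 0.38. The call of MCM5 was lost without siCtrl replicate 2 or siKMT9α replicate 3, at 0.48 and 0.50.

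The same subunits moved down or were not called in 5637 cells. MCM5 went from 154.4, 149.5 and 164.2 CPM to 118.0, 117.9 and 117.4 CPM, a log2 fold change of -0.41 (SE 0.04, adjusted p = 7.01e-11). MCM3 went from 171.9, 172.7 and 174.7 CPM to 131.7, 134.1 and 139.8 CPM, a log2 fold change of -0.36 (SE 0.03). MCM7 went from 588.6, 583.1 and 599.3 CPM to 506.5, 508.4 and 511.9 CPM, a log2 fold change of -0.21 (SE 0.03, adjusted p = 2.24e-07). The MCM7 call was lost without siKMT9α replicate 2 or 3, at log2 fold changes of -0.21 and -0.22. MCM4 had 235.9, 231.2 and 233.8 CPM against 216.3, 221.5 and 218.0 CPM (log2 fold change -0.10, adjusted p = 0.00828). MCM2 had 220.7, 214.6 and 224.7 CPM against 210.8, 207.7 and 208.2 CPM (log2 fold change -0.07, adjusted p = 0.0401). Neither passed the threshold for a call, although the groups did not overlap.

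**Figure D2:**
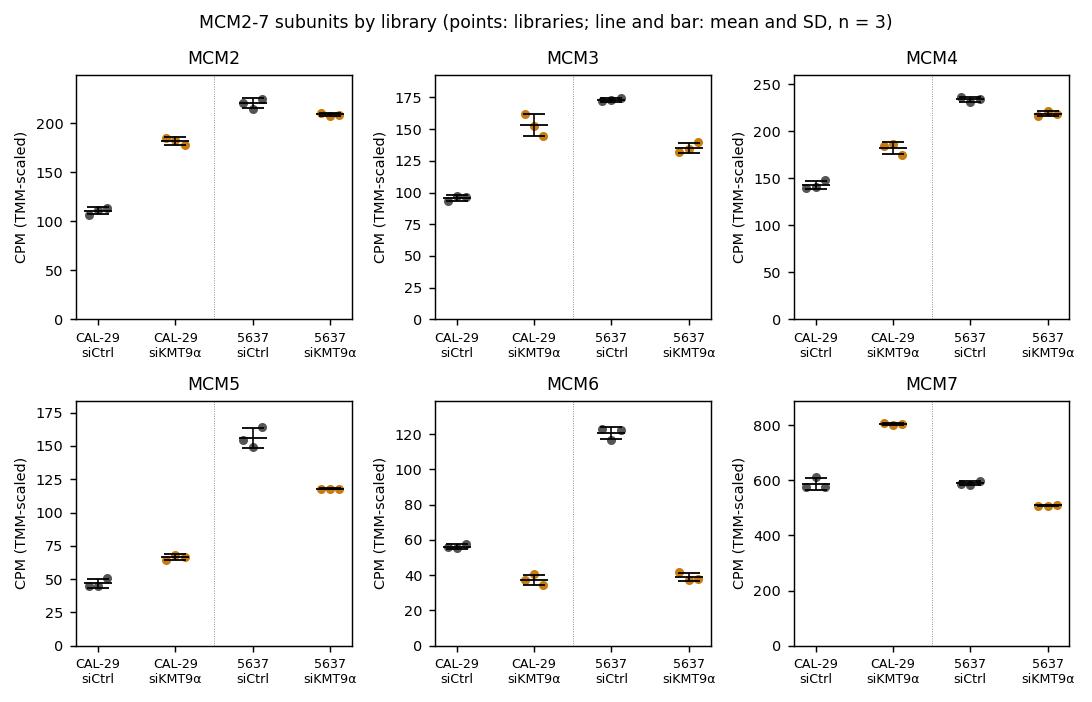
Level of each MCM2-7 subunit in CPM (TMM-scaled within a line, y axis from 0) in the 3 libraries of each group, with the mean and SD. MCM6 lies lower with siKMT9α in both lines, at 37.3 CPM in CAL-29 and 39.1 CPM in 5637 cells, whereas the other 5 subunits lie higher in CAL-29 cells only.

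The promoters of MCM2, MCM3, MCM6 and MCM7 are shown because the ring contains the only member that fell in both lines beside subunits that moved the other way in CAL-29 cells. Windows of MCM4 and MCM5 were not analysed here. The RefSeq table of GRCh38.p14 held a promoter window of 300 bases, from 250 before to 50 after the start, for 43 of the 49 genes. It was searched on both strands for 4 E2F core motifs that can overlap each other. These were TTGGCGC and TTCGCGC, which occur in pairs in the MCM6 window, and further TTCCCGC and also the related letters TTGCCGC. An E2F core was found in 30 of the 43 windows (69.8%), in 20.7% of the windows of genes tested in both lines and in 13.1% of all 27305 windows. In the sequences below, 5′ to 3′ on the strand of the gene, the E2F cores are in capitals.
MCM6, chr2:135876394-135876693, strand -: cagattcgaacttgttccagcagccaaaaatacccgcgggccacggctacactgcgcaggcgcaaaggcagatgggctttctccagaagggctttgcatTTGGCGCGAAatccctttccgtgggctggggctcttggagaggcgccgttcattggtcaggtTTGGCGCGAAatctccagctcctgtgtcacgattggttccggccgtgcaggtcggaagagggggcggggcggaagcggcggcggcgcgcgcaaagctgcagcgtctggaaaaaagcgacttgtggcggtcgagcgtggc
MCM3, chr6:52284693-52284992, strand -: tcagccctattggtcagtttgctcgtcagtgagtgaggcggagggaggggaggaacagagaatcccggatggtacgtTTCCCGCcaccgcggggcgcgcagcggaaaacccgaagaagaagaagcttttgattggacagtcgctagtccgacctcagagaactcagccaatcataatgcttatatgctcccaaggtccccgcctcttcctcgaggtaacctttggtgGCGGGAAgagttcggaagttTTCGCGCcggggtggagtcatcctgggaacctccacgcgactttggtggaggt
MCM7, chr7:100101348-100101647, strand -: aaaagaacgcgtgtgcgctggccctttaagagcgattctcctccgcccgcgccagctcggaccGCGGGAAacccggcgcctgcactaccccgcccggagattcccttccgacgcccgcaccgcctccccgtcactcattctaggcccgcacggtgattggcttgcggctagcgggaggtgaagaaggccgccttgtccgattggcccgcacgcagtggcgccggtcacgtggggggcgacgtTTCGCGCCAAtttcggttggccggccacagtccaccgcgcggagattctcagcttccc
MCM2, chr3:127598161-127598460, strand +: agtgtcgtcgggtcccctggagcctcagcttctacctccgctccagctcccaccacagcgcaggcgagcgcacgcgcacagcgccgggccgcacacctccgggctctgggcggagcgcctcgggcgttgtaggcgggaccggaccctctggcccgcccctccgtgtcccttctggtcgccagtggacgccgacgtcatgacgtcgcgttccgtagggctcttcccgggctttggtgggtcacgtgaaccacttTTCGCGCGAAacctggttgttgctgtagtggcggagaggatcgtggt

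Among these windows, that of MCM6 held 4 core matches in 2 overlapping pairs, against 3 each for MCM3 and MCM7 and 2 for MCM2. The 2 matches of MCM2 and 2 of those of MCM7 overlap as well, whereas the 3 of MCM3 lie apart. Counted as separate stretches in capitals, MCM3 held the most and not MCM6. In CAL-29 cells the median response was 0.50 on the log2 scale for the 30 genes with a core and 0.47 for the 13 without one. In 5637 cells the medians were -0.05 and 0.10. The letters CCAAT stood in 58.1% of the members' windows and in 36.6% of those of genes tested in both lines, and the letters TTTGAA of the CHR element stood in 1 of the 43. A match is a description of these letters and not a site of binding.

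Loading of the ring depends on the origin recognition complex, of which ORC1, ORC3, ORC5 and ORC6 were upregulated in CAL-29 cells. In 5637 cells ORC1, ORC5 and ORC6 were upregulated, and ORC4 was downregulated. ORC1, the large ATPase subunit, went from 10.8, 9.38 and 9.45 CPM to 19.9, 21.3 and 18.2 CPM in CAL-29 cells and from 21.1, 23.8 and 22.9 CPM to 33.7, 34.1 and 32.3 CPM in 5637 cells. This was a 2.01-fold rise (adjusted p = 5.43e-09) and a 1.48-fold rise (adjusted p = 1.04e-09). ORC6 went from 38.4, 34.8 and 36.5 CPM to 69.6, 68.4 and 63.7 CPM in CAL-29 cells, and from 27.8, 29.6 and 29.7 CPM to 41.4, 42.5 and 44.1 CPM in 5637 cells. Its log2 fold changes were 0.88 (SE 0.06) and 0.56 (SE 0.05). These ORC6 values come from different transcripts, NM_014321 in CAL-29 and NR_037620 in 5637 cells, each with the most counts in its line. ORC5 went from 36.3, 33.4 and 29.8 CPM to 44.8, 46.0 and 47.2 CPM in CAL-29 cells and from 14.2, 16.3 and 14.2 CPM to 22.2, 22.2 and 22.5 CPM in 5637 cells. It was the member with the largest rise in 5637 cells (log2 fold change 0.58, SE 0.07), and it rose by 0.47 (SE 0.07) in CAL-29 cells.

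The CAL-29 call of ORC5, at an unadjusted p of 7.34e-07, lay close to the threshold. It was lost without siCtrl replicate 2 or 3 or siKMT9α replicate 1, 2 or 3, at log2 fold changes of 0.41 to 0.50. ORC3 had log2 fold changes of 0.67 in CAL-29 and 0.39 in 5637 cells, where its unadjusted p of 2.82e-06 missed the threshold. ORC2 had 0.08 and 0.23 and was not called in either line.

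ORC4 was the exception in this complex. It had 35.7, 34.8 and 35.5 CPM with siCtrl and 35.1, 30.3 and 33.7 CPM with siKMT9α in CAL-29 cells, where the groups overlapped (log2 fold change -0.10, adjusted p = 0.191). In 5637 cells it went from 32.1, 29.4 and 32.5 CPM to 19.0, 20.7 and 19.2 CPM, a log2 fold change of -0.68 (SE 0.06, adjusted p = 6.11e-11). The difference of the response between the lines was -0.59 (SE 0.09, adjusted p = 2.58e-06). That call was lost in 7 of the 12 fits without 1 library, at log2 differences of -0.59 to -0.55, namely without CAL-29 siCtrl replicate 2, CAL-29 siKMT9α replicate 1 or 3, 5637 siCtrl replicate 1 or 3, or 5637 siKMT9α replicate 1 or 3.

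Of the licensing factors, CDT1 and GMNN, which encodes the CDT1 inhibitor geminin, rose together in CAL-29 cells. Their log2 fold changes were 0.72 and 0.76, and in 5637 cells they were 0.06 and 0.12, neither called. CDC6, the ATPase that acts with CDT1 in loading the ring, behaved differently. It had 51.6, 56.4 and 59.0 CPM with siCtrl and 62.1, 59.7 and 56.8 CPM with siKMT9α in CAL-29 cells, with overlapping groups (log2 fold change 0.10, adjusted p = 0.15). In 5637 cells it went from 98.7, 101.7 and 98.0 CPM to 59.6, 64.0 and 68.0 CPM, a log2 fold change of -0.64 (SE 0.04, adjusted p = 1.11e-13). All 3 factors responded lower in 5637 than in CAL-29 cells by the interaction term, with log2 differences between -0.75 and -0.66.

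MCM6, ORC4 and CDC6 are, in this order, the members ranked 1, 2 and 4 by the size of the fall in 5637 cells, and they share a feature of the transcript. A siRNA guide can pair with other transcripts through its positions 2 to 8, mostly in 3′ UTRs. The heptamer complementary to these positions of siKMT9α#1, ACATTCA, stood in the longest annotated 3′ UTR of these 3 of the 49 genes (6.12%) and of 15.4% of the 12403 genes with a 3′ UTR of at least 50 bases. The longest 3′ UTRs had a median of 938 bases in the members and 1524 bases over all genes. In the shortest annotated 3′ UTRs the shares were 6.12% and 5.98%. The window around the heptamer of MCM6, the member with the largest fall, is shown on the strand of the transcript in GRCh37 with the heptamer in capitals.
MCM6, chr2:136598232-136598254, strand -: tatgtgtcACATTCAtcacaggt

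Each of the 3 sites lay in the shortest as well as the longest annotated 3′ UTR of its gene. Over all genes tested in both lines, the median response on the log2 scale was -0.26 with and 0.05 without the heptamer in CAL-29 cells, and -0.31 with and 0.03 without it in 5637 cells. Genes with and without it were not matched for 3′ UTR length or base composition, and no other heptamer was counted. Of the 46 replication genes without the heptamer, CAL-29 cells called 31 higher and 0 lower, and 5637 cells called 9 higher and 9 lower. Over all genes tested, with or without the heptamer, 15.0% were called in each direction in CAL-29 cells. In 5637 cells 18.0% were called higher and 17.6% lower, so the 5637 counts lay near these shares. The shares among all genes without the heptamer were not computed. In the same 46 genes, 27 responses were lower in 5637 than in CAL-29 cells and 0 higher, with a median difference of -0.57. Over all genes tested, this difference was called lower for 8.62% and higher for 7.11%. TIMELESS, ranked between ORC4 and CDC6 in 5637 cells, held no heptamer. The part of the heptamer in the falls of MCM6, ORC4 and CDC6 was not tested, and a second siRNA was not analysed here.

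**Figure D3:**
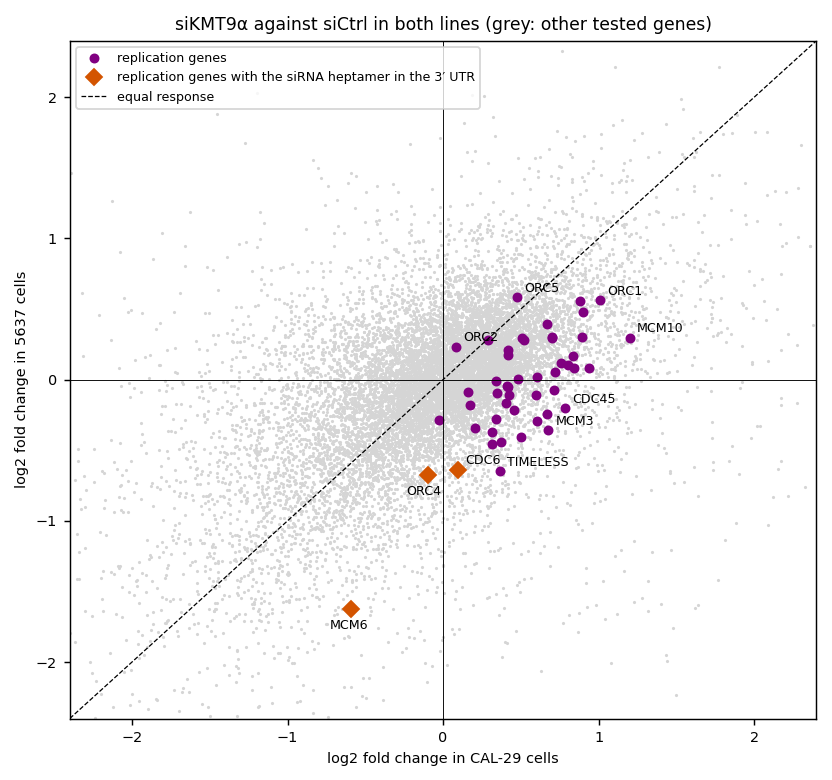
Log2 fold change in 5637 cells (y axis) against CAL-29 cells (x axis) for the 49 replication genes (coloured) and the other genes tested in both lines (grey, cropped to the axes), with the dashed line for equal responses. All of the 49 but ORC2 and ORC5 lie below the dashed line, and the orange diamonds mark MCM6, ORC4 and CDC6, which hold the heptamer.

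Of the 8 factors that turn the loaded ring into an active helicase, 7 were upregulated in CAL-29 cells, and the median log2 fold change of the 8 was 0.81, from 0.31 for GINS4 to 1.20 for MCM10. MCM10, needed for origin firing, showed the largest rise of the 49 genes in this line. It went from 10.8, 11.5 and 10.2 CPM to 25.1, 25.6 and 23.9 CPM, which was 2.30-fold higher (log2 fold change 1.20, SE 0.08, adjusted p = 4.74e-11). The 5637 libraries had 23.6, 21.6 and 25.3 CPM against 26.8, 29.3 and 30.6 CPM, and the log2 fold change of 0.30 was not called (adjusted p = 0.000164). The control level of 5637 cells was thus close to the knockdown level of CAL-29 cells on scales set within each line.

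GINS2 and GINS3, subunits of the GINS complex, rose by similar amounts in CAL-29 cells. GINS2 went from 9.26, 11.3 and 12.02 CPM to 19.5, 21.0 and 20.1 CPM, a log2 fold change of 0.89 (SE 0.10). GINS3 went from 10.9, 9.69 and 11.5 CPM to 21.3, 19.2 and 19.2 CPM, a log2 fold change of 0.90 (SE 0.09). In 5637 cells GINS3 went from 16.5, 17.0 and 17.6 CPM to 23.8, 23.3 and 23.9 CPM and was upregulated (log2 fold change 0.48, SE 0.06), whereas GINS2 had 22.3, 21.8 and 22.3 CPM against 25.3, 27.9 and 28.6 CPM and was not called (log2 fold change 0.30, adjusted p = 6.54e-05). GINS4, a further subunit, went the other way in 5637 cells, from 25.5, 26.3 and 28.9 CPM to 18.4, 20.1 and 20.2 CPM (log2 fold change -0.46, SE 0.06). In CAL-29 cells it had 25.1, 26.9 and 28.1 CPM against 35.8, 30.5 and 33.3 CPM and was not called (log2 fold change 0.31, adjusted p = 0.000636). The fall of GINS4 lost its call without 5637 siCtrl replicate 3 or siKMT9α replicate 1, at -0.40 and -0.42, and 23.4% of its exonic bases lie opposite to exons of other genes. GINS1 had log2 fold changes of 0.41, called, and -0.04.

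CDC45, the third component of the active helicase, went from 11.6, 13.4 and 13.8 CPM to 22.5, 21.7 and 22.7 CPM in CAL-29 cells (log2 fold change 0.78, SE 0.08). The 5637 libraries had 46.4, 45.4 and 45.1 CPM against 40.2, 40.2 and 38.7 CPM (log2 fold change -0.20, adjusted p = 0.000385), which was not called although the groups did not overlap. The difference of the response was -1.0005 (SE 0.09, adjusted p = 1.23e-10). TOPBP1 and WDHD1, which bind the firing complex and the fork, rose by 0.42 and 0.83 in CAL-29 cells on the log2 scale and had 0.17 each in 5637 cells, not called.

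Of the 9 subunits of the replicative polymerases, POLA1, POLD2 and POLD3 were upregulated in CAL-29 cells and none was downregulated. POLA1, the catalytic subunit of the polymerase that starts each strand with primase, went from 12.2, 10.4 and 10.6 CPM to 22.7, 20.6 and 20.0 CPM (log2 fold change 0.93, SE 0.09). The 5637 libraries had 38.0, 36.3 and 37.0 CPM against 40.9, 38.8 and 38.0 CPM, with overlapping groups (log2 fold change 0.08, adjusted p = 0.155). The partners of POLA1 were not called in CAL-29 cells, with log2 fold changes of 0.34 for POLA2, 0.37 for PRIM1 and -0.03 for PRIM2. In 5637 cells PRIM1, the catalytic primase subunit, fell by 0.44 on the log2 scale, whereas POLA2 and PRIM2 each had -0.28. POLD3 and POLE rose in 5637 cells, by 0.30 and 0.28. POLD1, the catalytic subunit of the lagging strand polymerase, had 0.17 and -0.18 and was called in neither line, as was POLE2 with 0.61 and -0.29.

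PCNA, the sliding clamp, was among the 4 members that were called in opposite directions in the lines, with MCM3, MCM5 and MCM7. It went from 145.3, 173.1 and 163.4 CPM to 259.6, 257.6 and 249.2 CPM in CAL-29 cells (log2 fold change 0.67, SE 0.06, adjusted p = 9.64e-10). In 5637 cells it went from 225.4, 229.4 and 240.2 CPM to 194.3, 198.5 and 193.5 CPM (log2 fold change -0.25, SE 0.03, adjusted p = 1.84e-07). The fall lost its call without 5637 siCtrl replicate 3 or siKMT9α replicate 3, at log2 fold changes of -0.22 and -0.24. Among all genes tested in both lines, 0.826% were called higher in CAL-29 and lower in 5637 cells, and 0.929% the other way. Of the clamp loader, RFC1, RFC2 and RFC3 rose in CAL-29 cells by 0.51, 0.48 and 0.84 on the log2 scale, and only RFC1 rose in 5637 cells, by 0.29. RFC4 had 0.16 and -0.09 and RFC5 had 0.34 and -0.01, none of them called.

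FEN1, the flap nuclease, rose by 0.43 in CAL-29 cells on the log2 scale and had -0.11 in 5637 cells, whereas LIG1, the ligase that seals Okazaki fragments, had 0.41 and -0.16 without a call. RPA2, the middle subunit of the single-strand binding complex, went from 32.8, 36.6 and 36.7 CPM to 59.5, 56.8 and 55.7 CPM in CAL-29 cells and from 65.8, 69.0 and 68.1 CPM to 85.0, 82.9 and 82.5 CPM in 5637 cells. Its log2 fold changes were 0.70 (SE 0.06) and 0.30 (SE 0.04), both called. Its partners were called lower in 5637 cells, RPA1 at -0.34 and RPA3 at -0.37, and had 0.21 and 0.32 in CAL-29 cells without a call. The 3 subunits of this complex thus did not move together in 5637 cells.

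TIMELESS, part of the fork protection complex, had 65.7, 61.1 and 60.9 CPM with siCtrl and 82.8, 83.1 and 75.3 CPM with siKMT9α in CAL-29 cells, just short of a call (log2 fold change 0.36, SE 0.05, adjusted p = 5.25e-06). In 5637 cells it went from 134.3, 130.2 and 134.0 CPM to 87.7, 83.0 and 83.6 CPM (log2 fold change -0.65, SE 0.04, adjusted p = 1.83e-15). The difference of the response was -1.03 (SE 0.07, adjusted p = 1.31e-13). Its partner TIPIN had 0.42 and 0.21, not called, at 5.06 to 13.2 CPM over all libraries. CLSPN, which carries the checkpoint signal from the fork, rose in both lines, by 0.52 and 0.28. The nucleotide supply genes RRM1, RRM2 and TYMS rose in CAL-29 cells by 0.41, 0.60 and 0.60 and had -0.05, 0.02 and -0.11 in 5637 cells, not called. Of the exonic bases of TYMS, 47.9% lie opposite to exons of other genes.

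**Figure D4:**
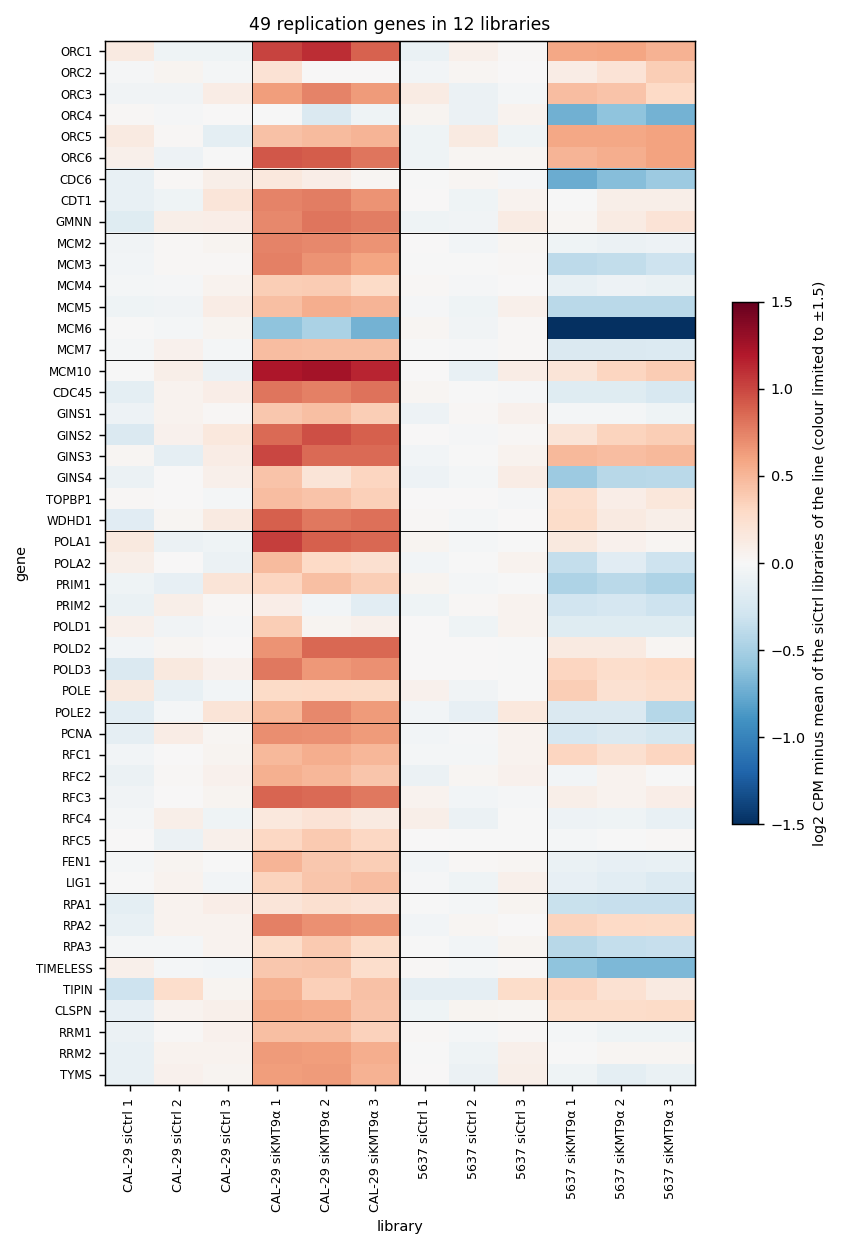
Log2 CPM of the 49 replication genes (rows, by role) in the 12 libraries (columns), each minus the mean of the siCtrl libraries of the same line, with colours limited to ±1.5. The CAL-29 siKMT9α columns are red for most genes and blue for MCM6, whereas the 5637 siKMT9α columns are mixed, with MCM6, ORC4, CDC6 and TIMELESS in blue.

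The lines were compared directly in a fit of all 12 libraries, which asks whether the response to siKMT9α differed. The response was lower in 5637 than in CAL-29 cells for 30 members and higher for 0, where 8.62% of all genes were called lower and 7.11% higher. This is 61.2% of the members. At an adjusted p below 0.05 the difference was negative for 45 members and positive for 0. At that limit it was negative for 4395 and positive for 3369 of all 15395 genes tested, of which 8276 had a negative value at any p. The median difference was -0.59, against -0.04 over all genes, and 47 of the 49 values were negative, the exceptions being ORC2 (0.14, adjusted p = 0.23) and ORC5 (0.09, adjusted p = 0.439). ORC5 had -0.023 with libraries scaled by total counts. After MCM6, the 5 largest called differences were those of MCM3 (-1.05), TIMELESS (-1.03), CDC45 (-1.0005), PCNA (-0.93) and MCM5 (-0.93). POLE showed a difference of -0.02 (SE 0.07, adjusted p = 0.836), with log2 fold changes of 0.29 (not called) in CAL-29 and 0.28 (called) in 5637 cells. By group, all 6 MCM2-7 subunits, all 3 licensing factors, all 3 nucleotide supply genes and both lagging strand genes (FEN1 and LIG1) passed, against 1 of 6 in the origin recognition complex.

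The 2 lines did not start from the same level. With siCtrl, 36 of the 49 genes were higher in 5637 than in CAL-29 cells and 1, ORC5, was lower (log2 difference -1.09), where 30.7% of all genes were called higher and 29.0% lower. The median difference was 1.002, against -0.01 over all genes. POLD1 differed most (log2 difference 2.42), and all called members of the polymerases, of the fork protection complex and of the nucleotide supply group were higher in 5637 cells. In the MCM2-7 ring, MCM5 differed by 1.80 and MCM7 by 0.07, which was not called (adjusted p = 0.0761). The response and the starting level share the siCtrl libraries, so no relation between them was computed.

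Other genes of the pathway were examined as lists. Of 64 further genes for firing, forks, nucleotides, the checkpoint and E2F, CAL-29 cells showed 26 rises and 4 falls, and 5637 cells showed 19 rises and 11 falls. Over all genes, 15.0% were called in each direction in CAL-29 cells, and 18.0% higher and 17.6% lower in 5637 cells. The 11 falls thus lay near the share over all genes. DBF4, the activating subunit of the kinase that fires licensed origins, rose most, from 13.5, 13.1 and 12.7 CPM to 42.7, 41.5 and 43.0 CPM in CAL-29 cells, 3.24-fold higher, and by 0.37 on the log2 scale in 5637 cells. TICRR, which brings TOPBP1 to origins, rose by 1.23 and 0.48, and DBF4B by 0.93 and 0.63. LRWD1, a partner of the origin recognition complex, rose in 5637 cells (0.59) and had -0.06 in CAL-29 cells. Among fork and chromatin factors, HELLS and DSCC1 rose by 1.14 and 1.10 in CAL-29 cells. UHRF1, which links maintenance methylation to the fork, fell in both lines, by 0.37 and 1.16. SUPT16H, a subunit of the histone chaperone FACT, also fell in both, by 0.35 and 1.10.

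Of the 9 other nucleotide enzymes, CAL-29 cells showed 4 rises, and 5637 cells showed 2 rises and 1 fall. The shares over all genes were 15.0% in each direction in CAL-29 cells, and 18.0% higher and 17.6% lower in 5637 cells. SAMHD1, which degrades deoxynucleotides, rose by 0.94 and 0.62 on the log2 scale, DCK by 0.74 and 0.57, and DTYMK by 0.88 in CAL-29 cells with 0.26 in 5637 cells, not called. The 8 checkpoint genes gave 1 rise and 1 fall in CAL-29 cells and 2 rises and 1 fall in 5637 cells, near the shares over all genes. ETAA1, an activator of ATR, fell by 0.76 and 0.42, RAD1 rose by 0.55 and 0.35, and HUS1 rose by 0.47 in 5637 cells, with -0.02 in CAL-29 cells.

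Of the 15 E2F and RB regulators, CAL-29 cells showed 7 rises and 0 falls, and 5637 cells showed 5 rises and 3 falls. Among all genes, 15.0% were called in each direction in CAL-29 cells, and 18.0% higher and 17.6% lower in 5637 cells. CCNE1, a cyclin of S phase entry, rose by 1.10 in CAL-29 and by 0.32 in 5637 cells. CCNE2, of the same list, had -0.50 and -0.26, not called. E2F8, a repressor of the family, rose by 0.98 in CAL-29 cells and had 0.05 in 5637 cells. E2F5 went from 17.2, 20.5 and 19.2 CPM to 6.48, 6.02 and 6.34 CPM in 5637 cells, 3.02-fold lower, and had 0.19 in CAL-29 cells, not called. TFDP2, a dimerisation partner of E2F, fell by 1.01 in 5637 cells and had -0.00 in CAL-29 cells. Of the 64 genes, 6 held the ACATTCA heptamer in the longest annotated 3′ UTR, where 15.4% of all genes tested in both lines held it. The share of all genes with the heptamer that were called lower was not computed. Of the 6, UHRF1, SUPT16H, E2F5 and TFDP2 fell in 5637 cells, ATR was not called and DBF4 rose, whereas in CAL-29 cells 2 fell and DBF4 rose. DBF4 alone held it in the shortest annotated 3′ UTR as well, and the 3′ UTR in use in these cells is not given by the counts.

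With siCtrl, 9 of the 15 E2F and RB regulators were called higher and 4 lower in 5637 than in CAL-29 cells. Over all genes, 30.7% were called higher and 29.0% lower. RB1 had 45.0, 48.5 and 50.2 CPM in the siCtrl libraries of CAL-29 cells and 4.88, 5.14 and 5.11 CPM in those of 5637 cells, a log2 difference of -3.18 in the joint fit. E2F3 had 54.0, 48.5 and 44.5 CPM against 547.2, 518.5 and 520.3 CPM, a log2 difference of 3.50. With siKMT9α, E2F3 rose by 0.71 in CAL-29 and by 0.95 in 5637 cells on the log2 scale, both called. RB1 had -0.31 and 0.30, not called. RB1 and E2F3, the extremes of the list in starting level, were named after their values were seen. Their part in the different responses was not tested.

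The 10 mitotic markers all rose in CAL-29 cells and 8 rose in 5637 cells, where 15.0% and 18.0% of all genes were called higher. Their median log2 fold changes were 1.40 and 0.39. PLK1, a mitotic kinase, rose by 2.07 and 0.56, AURKA by 1.73 and 0.51, CCNB1 by 1.65 and 0.57 and MKI67 by 1.15 and 0.60. The difference between the lines was negative and called for all 10. Mitotic markers thus moved with the replication genes in CAL-29 cells, whereas in 5637 cells they rose while the median of the replication genes lay near 0. The number of dividing cells was not measured by these data, and the part of the mitotic markers in the result was not tested.

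**Figure D5:**
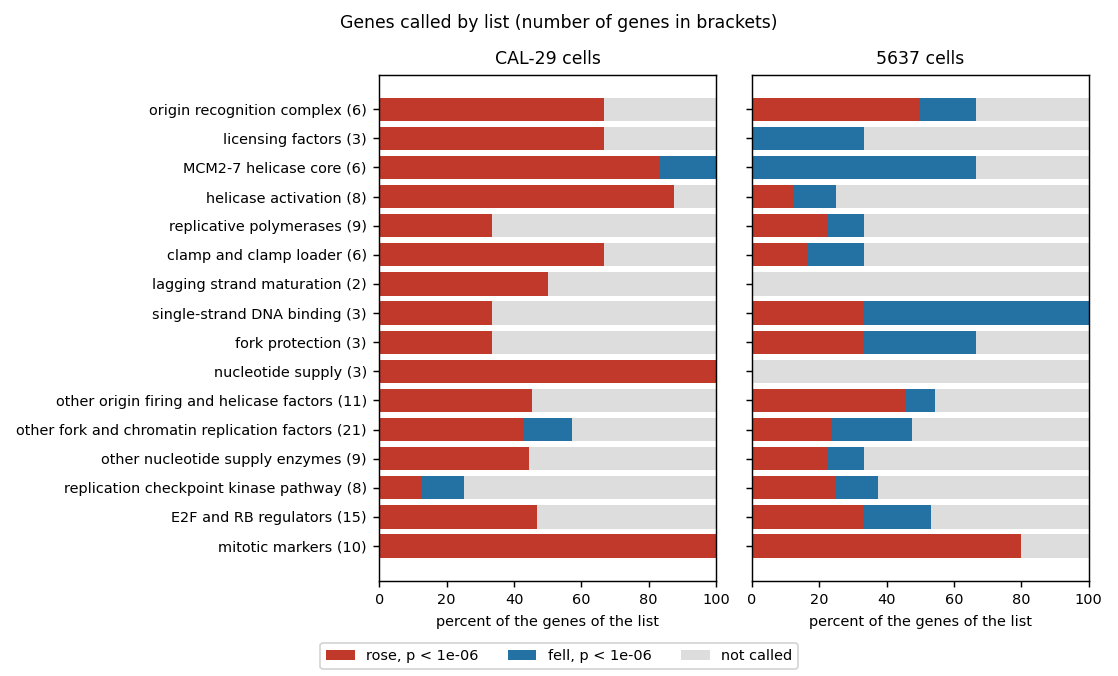
Percent of the genes of each list (x axis) that were upregulated (red), downregulated (blue) or not called (grey) in CAL-29 cells (left) and 5637 cells (right), with the number of genes in brackets. In CAL-29 cells all 10 mitotic markers and all 3 nucleotide supply genes were upregulated, and in 5637 cells 4 of the 6 MCM2-7 subunits were downregulated.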

How the data were processed

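RNA of 12 samples, 3 libraries per siRNA in each cell line, was sequenced. Reads were aligned to hg19 with STAR and counted with Homer, per the labels and methods. The deposited tables hold each transcript's estimated counts, without normalization, in steps of 0.5 (37400 transcripts of 23064 symbols per line). The authors also deposited a log2 fold change, a p-value and an adjusted p-value of their comparison for each transcript, none of which was used.

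Each symbol was represented by its transcript of highest total count, rounded to whole numbers. Libraries were scaled with TMM, low genes removed with filterByExpr, and all genes tested with the quasi-likelihood F test of edgeR 4.0.16 (R 4.3.3), within each line (14673 and 14335 genes) and jointly over 12 libraries with the interaction of line and siRNA (15395 genes). SE is the size of the log2 fold change divided by the square root of F, and p-values are 2-sided. Replicate numbers were taken from the titles, whose siKMT9α numbers differ from those of the descriptions. Replicates differed by more than sampling noise (chi-square per degree of freedom 2.25 to 12.3), so intervals from counting alone would be too narrow. The highest values, 8.22 and 12.3, were those of CAL-29 siCtrl replicate 1 against replicates 2 and 3. The biological coefficient of variation was 5.09% in CAL-29 and 3.34% in 5637 cells. The test was checked on simulated counts with 100 changed genes, called at the same threshold. At a true log2 change of 0.5, it called 59 in CAL-29, 62 in 5637 and 53 in the interaction. At a true log2 change of 1.0 these were 86, 89 and 79, and 0 unchanged genes were called. A member without a call can thus have changed by such an amount.

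Positions and 3′ UTRs were taken from GENCODE v44lift37 on GRCh37, promoters from RefSeq (GRCh38.p14). The members and lists were chosen with earlier results of these data known. Values in every library were given for N6AMT1, the MCM2-7 subunits, the 5 largest called rises and falls per line, the 6 largest called differences between the lines and, of each other list, the 2 largest called changes per line (as values or fold changes). Alternatives were other scalings and filters, DESeq2 1.42.0, summed transcripts, other thresholds, the replicate number as a block and each library left out.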

Additional observations from a re-analysis of the deposited data

Results flagged for a closer look

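The response to siKMT9α differed between the lines by the interaction term for 30 of the 49 replication genes, all lower in 5637 than in CAL-29 cells. Among the genes described one by one, the log2 difference (5637 minus CAL-29) passed the threshold in the MCM2-7 ring for MCM2 (-0.80), MCM3 (-1.05), MCM4 (-0.46), MCM5 (-0.93), MCM6 (-1.05) and MCM7 (-0.68). Upstream of the ring it passed for ORC4 (-0.59) and CDC6 (-0.75). Among the helicase activators it passed for MCM10 (-0.92), CDC45 (-1.0005) and GINS4 (-0.79), and at the fork for POLA1 (-0.87), PCNA (-0.93) and TIMELESS (-1.03). MCM6 fell in both lines, ORC4 and CDC6 fell in 5637 cells without a call in CAL-29 cells, and MCM2, MCM4, MCM10, CDC45 and POLA1 rose in CAL-29 cells without a call in 5637 cells. siRNA concentration, reagent, medium and line cannot be told apart.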

How the results depend on the processing

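Of 900 refits of single genes, 854 kept direction and side of the threshold, 33 lost a call, 12 gained one (6 of them TIMELESS in CAL-29 cells) and 1 changed sign, ORC5 in the difference between the lines, at -0.0228 with scaling by total counts. Where a call also needed a log2 fold change of 1 or more in size, 2 members rose and 0 fell in CAL-29 cells, 0 rose and 1 fell in 5637 cells, and 4 responses were lower in 5637 cells, by construction. At an adjusted p below 0.05, 16 rose and 22 fell in 5637 cells and 5 were lower with siCtrl. Scaling by total counts moved the medians of the members to 0.56 in CAL-29 and -0.10 in 5637 cells, as it moved the median of all genes to 0.06 and -0.06, and left 5 rises in 5637 cells. Summing the transcripts of a gene left 4 rises in 5637 cells, where the cause was not tested. With siCtrl, 2 members were lower in 5637 cells under a minimum of 10 counts in every library and 3 with DESeq2, where the cause was not tested. Leaving out 1 library, the median in CAL-29 cells was between 0.47 (without siCtrl replicate 1) and 0.53 (without siCtrl replicate 3), with 0.48 in the main fit. In 5637 cells it was between -0.0445 and -0.0128, nearest to 0 without siCtrl replicate 3. Without 1 library, 23 to 34 members rose and 1 fell in CAL-29 cells, 6 to 9 rose and 9 to 12 fell in 5637 cells, and 25 to 30 responses were lower in 5637 cells.

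Libraries with the same replicate number had correlations of their deviations between 0.00 and 0.12 in CAL-29 and between -0.01 and 0.10 in 5637 cells, so the numbers were not taken as pairs. With the replicate block, 35 members rose and 1 fell in CAL-29 cells, 10 rose and 13 fell in 5637 cells, and 30 responses were lower in 5637 cells.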

Other observations

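Several partners of one complex moved apart, in genes outside the 49 that were picked after their values were seen. FACT carries histones past the fork as a dimer of SUPT16H and SSRP1. SUPT16H fell in both lines, whereas SSRP1 rose by 0.44 on the log2 scale in CAL-29 cells and had -0.02 in 5637 cells, not called. UHRF1 recruits DNMT1 to newly made DNA. UHRF1 fell in both lines, whereas DNMT1 rose by 0.95 and 0.22. SUPT16H and UHRF1 held the ACATTCA heptamer in the longest but not the shortest annotated 3′ UTR, whereas SSRP1 and DNMT1 held none. The part of the heptamer in these falls was not tested. The smallest subunit of DNA polymerase delta, POLD4, went from 53.0, 52.8 and 53.5 CPM to 24.9, 27.1 and 28.1 CPM in CAL-29 cells and from 30.2, 30.2 and 32.0 CPM to 20.9, 21.7 and 19.7 CPM in 5637 cells. Its log2 fold changes were -0.99 and -0.57, both called, whereas POLD2 and POLD3 rose in CAL-29 cells. POLD4 held no ACATTCA heptamer in its 3′ UTR. CDC7, the kinase that DBF4 activates, had 0.36 in CAL-29 cells, not called, and fell by 0.40 in 5637 cells, where DBF4 rose. PCLAF, which binds PCNA, rose in both lines, by 1.07 and 0.55, whereas PCNA fell in 5637 cells.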
